A study of Mus musculus with 21 samples.

Results

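Long-term haematopoietic stem cells (LT-HSC) that lack Phf6 were compared with wild-type (WT) LT-HSC in 5 bulk RNA-seq libraries, 3 knockout (KO) and 2 WT, of the 21 libraries in the series. The libraries were chosen by their labels alone, and the comparison runs over 21100 genes that passed a filter on low counts. All 5 came from bone marrow of C57BL/6 mice aged 12 weeks, and each was made from 100 to 200 cells. The cells were sorted with a lineage cocktail and antibodies to Sca-1, cKit, CD150 and CD48, per the labels. The KO allele is not given in the sources used here, nor is any Cre line or other shared allele. The other 16 libraries are 4 WT and 4 KO each of MPP2 and MPP3, which are multipotent progenitors downstream of LT-HSC. By Xist and Ddx3y counts, WT library 2 and KO library 2 came from males and the other 3 LT-HSC libraries from females.

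Phf6 is a PHD-finger chromatin protein of the nucleus, and its human counterpart is often mutated in T-cell leukaemia. LT-HSC are the rare bone marrow cells that sustain all blood lineages over a lifetime, mostly while out of the cell cycle. They carry CD150 (Slamf1), cKit (Kit) and Sca-1 (Ly6a) at the surface and lack CD48 (Cd48), and they express low levels of genes of the lineages they can form, which is called lineage priming.

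Total counts were alike, from 25366462 to 26598401 per LT-HSC library. Levels are given in CPM, each library's counts rescaled to a common total with TMM factors, always in the order WT 1 and 2, then KO 1, 2 and 3. Markers of LT-HSC were present in all 5 libraries. Slamf1 stood at 64.1 and 52.0 CPM in WT and at 65.1, 57.9 and 54.9 CPM in KO. Mecom, Hlf, Fgd5 and Hoxb5, transcription factors and a signalling gene that mark LT-HSC, had at least 14.6 CPM in all 5 libraries. Cd48 was low in all 5, between 5.57 and 19.1 CPM. Flt3, the other gene listed as low in LT-HSC, had 61.8 and 87.8 CPM in WT and 14.5, 40.1 and 9.71 CPM in KO. Both WT libraries thus held more Flt3 than the highest Cd48 level.

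Before the comparison, 3 libraries stood apart from the rest. WT library 2 held neutrophil RNA: 15 neutrophil marker genes took 0.537% of its counts, against 0.000763% to 0.00656% in the other 4. S100a8 was at 1668 CPM there, against 3.40 to 33.3 CPM elsewhere, and Ltf was at 356 CPM there with 0 counts in the other 4. Mmp8, Cd177 and Ly6g also had 0 counts outside it. KO library 3 had 20297 genes with a count, against 23786 to 24827 in the others, and 34 of the genes that reached 10 CPM on average in WT or KO were at 0 in it. Its title number is 212, against 54 to 64 for the other 4, and what these numbers mark is not stated. No WT LT-HSC library has a number above 61, so number and genotype cannot be told apart for KO library 3. KO library 1 had the highest summed interferon genes (0.560% of counts, against 0.304% to 0.353%) and the highest mitochondrially encoded RNA (3.54%, against 2.06% to 2.50%).

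KO libraries differed from one another by as much as from WT. Over 9794 genes that reached 10 CPM on average in WT or KO, the median absolute log2 difference was 0.21 between the 2 WT libraries, from 0.26 to 0.41 between WT and KO libraries, and from 0.35 to 0.52 among the KO libraries. The 2 WT libraries were the most alike pair of the 10. The first principal component took 51.0% of the variance and set KO library 3 at 60.1 against -27.0 to -5.21 for the other 4. The second component, with 22.6%, ran from WT library 2 at -28.8 to KO library 1 at 34.0.

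**Figure D1:**
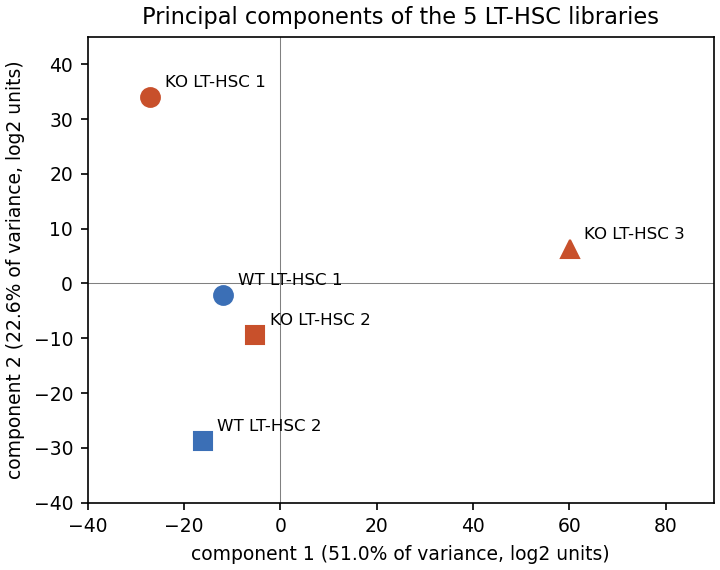
Principal components of log2(CPM + 0.5) in the 5 LT-HSC libraries, with component 1 on the x axis and component 2 on the y axis; blue points are WT and orange points KO. KO library 3 lies alone at 60.1 on component 1, and WT library 1 (-11.8) and KO library 2 (-5.21) lie near each other.

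The targeted gene followed the labels. Phf6 (X chromosome, 52912266 to 52956943, mm10) had 177 and 124 CPM in WT and 5.75, 10.01 and 13.2 CPM in KO. Both WT libraries were high and all 3 KO libraries were low, with a 9.40-fold gap between the lowest WT and the highest KO library. The group means were 150.5 ± 37.8 CPM (SD, n = 2) and 9.65 ± 3.73 CPM (SD, n = 3). The fitted log2 fold change was -3.96 (SE 0.585), with an adjusted p of 0.0371 by edgeR's quasi-likelihood test with Benjamini-Hochberg adjustment. An exact two-sided permutation test of mean CPM gave p = 0.1, the smallest value that 2 against 3 libraries allow. KO libraries kept 160, 292 and 395 Phf6 counts, and the counts per gene do not show which exons these came from. The call was lost when any 1 of the 5 LT-HSC libraries was left out (adjusted p from 0.111 to 0.571), although the log2 fold change stayed between -4.25 and -3.67. It was also lost in a fit of the 5 LT-HSC libraries alone (adjusted p = 0.9997), whose log2 fold change was -3.98, and with the replicate number as a block (adjusted p = 0.282, log2 fold change -3.83).

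Genes beside Phf6 did not pass the test. Of the 8 other protein-coding genes within 500 kb, 5 were tested, and 0 were called by edgeR, 0 at an unadjusted p under 0.05. Hprt, the purine salvage enzyme next to Phf6, had 423 and 388 CPM in WT and 671, 540 and 476 CPM in KO, so all 3 KO libraries were higher without passing the test (log2 difference 0.47, SE 0.343).

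A second gene had no counts in WT LT-HSC and was detected in every KO library. Sva, seminal vesicle antigen, a secreted protein of the male accessory glands, had 0 counts in both WT libraries and 273, 120 and 43 counts in KO, or 9.81, 4.11 and 1.43 CPM. The WT libraries sat at the floor, and KO library 1, from a female, was the highest. Set against a floor of 3 counts over the WT group, the KO level was at least 96.7-fold higher. The edgeR adjusted p was 0.358, which misses the threshold of 0.05, while DESeq2 gave 5.04e-05 and limma voom with quality weights 0.00229. The exact two-sided permutation test of mean CPM gave p = 0.2. Sva had at most 3 counts over all 10 WT libraries of the series and at least 10 counts in every one of the 11 KO libraries, and it was the 1 gene of the table with that pattern.

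The 250 bases before the annotated start of Sva are shown since the gene was silent in WT and detected in all KO libraries. They lie at chr6:42038144-42038393 on the plus strand (GRCm38.p6, RefSeq), and the capitals mark the only match to ATAAAA on either strand, which starts 31 bases before the gene.

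Sva: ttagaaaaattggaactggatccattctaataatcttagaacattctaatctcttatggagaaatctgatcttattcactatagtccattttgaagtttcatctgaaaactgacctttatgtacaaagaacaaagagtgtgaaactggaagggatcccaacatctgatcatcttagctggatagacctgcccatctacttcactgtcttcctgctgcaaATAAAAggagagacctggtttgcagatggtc

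The stretch holds 0 CpG dinucleotides and no TATAAA on either strand. Among 32850 promoters of the same length, 7.87% hold 0 CpG, with a median of 6, and 17.0% hold ATAAAA on either strand. Sva lies among taste receptor, olfactory receptor and Sva-like genes. Of the 26 other protein-coding genes within 500 kb, 13 had 0 counts in all 5 libraries, 9 were tested, and edgeR called 0 of them, 0 at an unadjusted p under 0.05. Casp2, an apoptotic caspase close to Sva, had 162 and 143 CPM in WT and 165, 118 and 135 CPM in KO, which overlap.

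**Figure D2:**
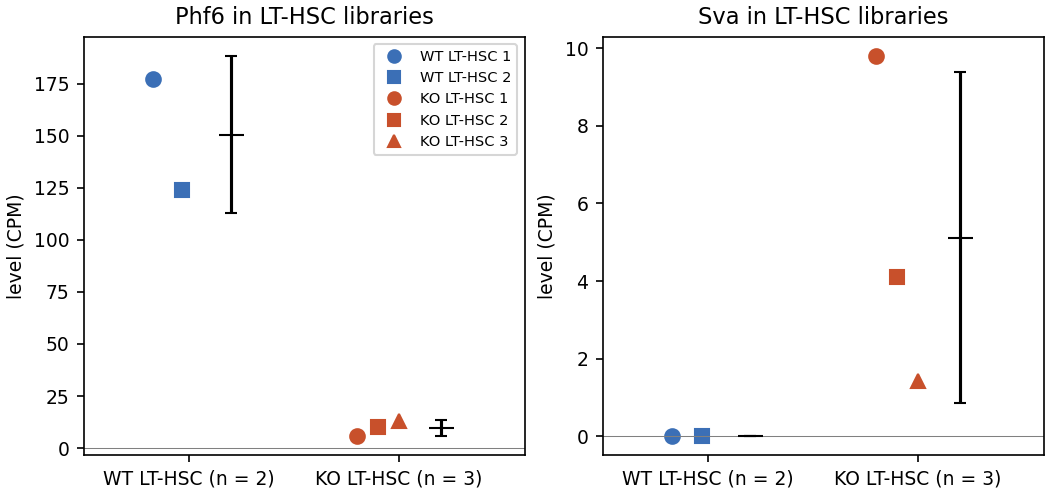
Levels of Phf6 (left) and Sva (right) in CPM on the y axis, with each LT-HSC library as a point and the mean with SD as a bar beside it (n = 2 WT, n = 3 KO). Phf6 falls from 124 CPM or more in WT to 13.2 CPM or less in KO, and Sva is at 0 in WT and from 1.43 to 9.81 CPM in KO.

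Across all genes, Phf6 was the single one that passed the threshold. edgeR called 1 of 21100 genes (0.00474%), and 513 (2.43%) had an unadjusted p under 0.05, 187 higher in KO (0.886%) and 326 lower (1.55%). The median log2 fold change of all genes tested was 0.00. DESeq2 called 28 genes (0.133%), 14 in each direction (0.0664% each), of which 16 had over 90% of their LT-HSC counts in 1 library. Limma voom with quality weights called 6 (0.0284%), and in all 6 the WT and KO libraries did not overlap. Sva and Gipc2 were higher in KO (0.00948% of genes), and Phf6, Tgm5 and a pair of predicted genes, Gm32017 and Gm26719, were lower (0.019%). Tgm5 and the predicted genes fall outside the naming rule and are given because voom called them, which was known when they were chosen.

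A gap between the groups was common and mostly narrow. Of the same 9794 genes, all 3 KO libraries were above both WT libraries in 903 (9.22%) and below both in 1066 (10.9%). The lowest library of the higher group was at least 2-fold above the highest of the other in 9 genes higher in KO (0.0919%) and 15 genes lower in KO (0.153%). The genes described next were taken by smallest p or largest gap among genes without overlap between the groups. That the groups are separate in each of them thus follows from the choice. Apart from Phf6, none of them passed the threshold in edgeR (adjusted p at least 0.832), so they are given as values. The design names 4 pairs of WT and KO mice without tying a library to a mouse. The p-values thus measure only the spread between these libraries. By sex, WT libraries 1 and 2 came from different mice, as did KO library 2 from KO libraries 1 and 3. How much of the spread is technical is not known.

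**Figure D3:**
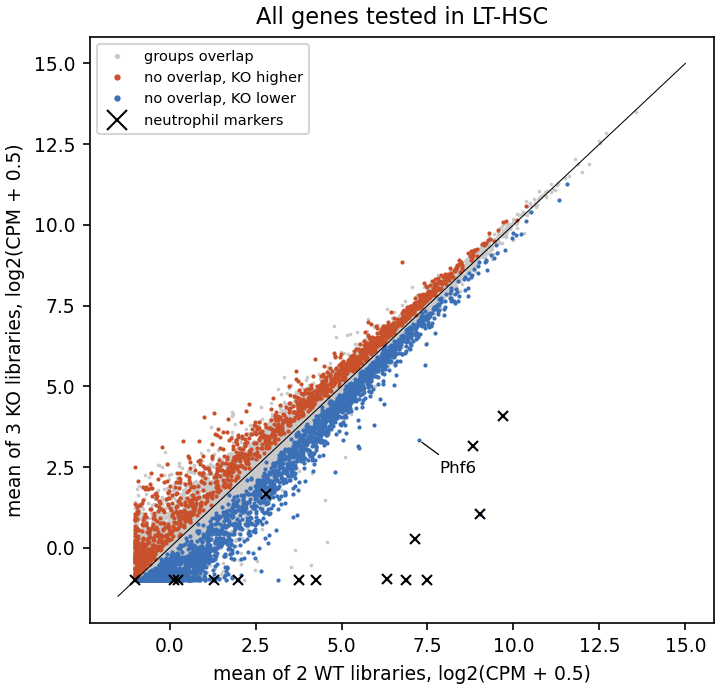
Mean level of each tested gene in 2 WT (x axis) and 3 KO (y axis) LT-HSC libraries, both as log2(CPM + 0.5); the line marks equal levels, orange and blue points are genes whose groups do not overlap, and crosses are neutrophil markers. Most genes lie along the line, the neutrophil markers lie below it through WT library 2, and Phf6 is labelled.

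The named genes that were higher in KO are given by role, blood lineage genes first. Pf4, platelet factor 4, a chemokine stored in platelet granules, had 73.1 and 142 CPM in WT and 338, 701 and 358 CPM in KO. Every KO library was at least 2.38-fold above every WT library, yet with a log2 difference of 2.11 (SE 1.30) the unadjusted p was 0.122. Slc35d3, a transporter of the nucleotide-sugar family needed for platelet dense granules, had 1.93 and 5.54 CPM in WT and 11.9, 16.6 and 14.8 CPM in KO (log2 difference 1.95, SE 0.681). Thbd, thrombomodulin, which turns thrombin towards anticoagulation, had 2.35 and 2.99 CPM in WT and 16.3, 8.13 and 10.4 CPM in KO (log2 difference 2.12, SE 0.701). The groups did not overlap in either gene. Epor, the erythropoietin receptor, had 14.7 and 9.72 CPM in WT and 32.1, 44.1 and 57.0 CPM in KO (log2 difference 1.86, SE 1.70).

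Genes of the centrosome, folate metabolism and recombination follow. Cep72, a centrosomal protein that helps recruit the microtubule nucleation machinery, had the smallest p among the named genes of at least 10 CPM that were higher in KO. It had 1.48 and 3.40 CPM in WT and 9.70, 7.78 and 16.7 CPM in KO, a log2 difference of 2.22 (SE 0.476), with adjusted p = 0.871 in edgeR and 0.00145 in DESeq2. Mthfd2, a mitochondrial enzyme of one-carbon folate metabolism, had 11.8 and 12.6 CPM in WT and 26.9, 35.4 and 48.2 CPM in KO, a log2 difference of 1.59 (SE 0.475). The 2 WT libraries were nearly equal and all 3 KO libraries were more than 2-fold above them. Rad51b, a gene of homologous recombination, had 8.26 and 6.08 CPM in WT and 14.5, 17.1 and 13.1 CPM in KO (log2 difference 1.06, SE 0.343). Psmc3ip, which assists strand exchange in recombination, had 23.4 and 23.1 CPM in WT and 33.5, 50.1 and 45.3 CPM in KO (log2 difference 0.89, SE 0.279). In both recombination genes the KO libraries were all higher.

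The remaining ones were of mixed function and moderate size. Dhx29, an RNA helicase of translation initiation, had 10.2 and 10.8 CPM in WT and 16.2, 22.8 and 26.4 CPM in KO (log2 difference 1.05, SE 0.327). Utp6, a factor of small-subunit ribosomal RNA processing, had 48.1 and 40.0 CPM in WT and 69.8, 67.2 and 74.3 CPM in KO (log2 difference 0.68, SE 0.228). Ndc1, a membrane protein of the nuclear pore, had 51.8 and 47.1 CPM in WT and 87.9, 90.7 and 71.4 CPM in KO (log2 difference 0.75, SE 0.265). KO libraries were tightly grouped in Utp6 and more spread in Dhx29. Arhgap19, a GTPase-activating protein of dividing cells, Wdr90, a WD-repeat protein, and Ndufb4, a subunit of respiratory complex I, had log2 differences of 1.45, 2.17 and 0.60. Lhfp, a tetraspan membrane protein, had the widest gap among genes of at least 10 CPM that were higher in KO, with 2.25 and 2.005 CPM in WT and 11.0, 8.74 and 17.5 CPM in KO (3.89-fold). Fhl4, a LIM-domain gene, had 2.07 and 3.47 CPM in WT and 10.8, 8.81 and 26.3 CPM in KO.

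The named genes that were lower in KO are given in the same way, surface proteins and adaptors first. Cd37, a leukocyte tetraspanin, had 75.5 and 72.1 CPM in WT and 21.8, 38.1 and 46.0 CPM in KO, with a log2 difference of -1.06 (SE 0.257). Dpp4, also called CD26, a surface peptidase that cleaves the niche chemokine CXCL12, had 44.7 and 45.8 CPM in WT and 19.4, 16.9 and 2.54 CPM in KO (log2 difference -1.80, SE 0.525). The WT pair agreed closely in both genes, and the lowest Dpp4 value was in KO library 3. Hcst, the DAP10 signalling adaptor, had 36.5 and 30.8 CPM in WT and 13.7, 18.7 and 18.1 CPM in KO, a ratio between the lowest WT and the highest KO library of 1.65. Fut7, a fucosyltransferase that builds selectin ligands for homing, had 32.2 and 14.8 CPM in WT and 10.8, 11.0 and 10.5 CPM in KO (log2 difference -1.13, SE 0.339). WT library 1 carried most of that difference, which was -0.45 without it.

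A transcription factor and genes of lymphoid signalling, lysosomes and secreted proteases follow. Sox6, an HMG-box transcription factor that acts in erythroid development, had 56.3 and 65.6 CPM in WT and 16.6, 18.0 and 5.67 CPM in KO, a 3.13-fold gap. Its log2 difference was -2.18 (SE 0.588) with an unadjusted p of 0.00147 by edgeR. Tespa1, a gene of T-cell receptor signalling in thymocytes, had 23.0 and 19.7 CPM in WT and 6.97, 5.79 and 7.77 CPM in KO (log2 difference -1.64, SE 0.503). Its gap was 2.54-fold, with both WT libraries above all 3 KO libraries. Gm2a, the lysosomal GM2 ganglioside activator, had 83.7 and 109 CPM in WT and 38.7, 39.6 and 42.3 CPM in KO (log2 difference -1.26, SE 0.379). The 3 KO values lay within a few CPM of each other. Slc27a1, a fatty acid transporter, and Otulinl, a relative of the deubiquitinase Otulin, had log2 differences of -0.76 and -1.62. Among genes of at least 10 CPM, the widest gap outside the neutrophil genes and Phf6 was in Hgfac, the protease that activates hepatocyte growth factor, with 17.6 and 17.3 CPM in WT and 4.81, 4.42 and 4.84 CPM in KO (3.58-fold). Mmp2, a gelatinase, had 15.3 and 10.1 CPM in WT and 1.62, 2.91 and 0 CPM in KO (3.45-fold). Lcn2 and Ifitm6, both neutrophil markers, had 0 counts in KO, and the 36 and 13 counts of WT library 1 were small beside the 6784 and 751 counts of WT library 2. The non-coding transcript 4930519L02Rik, named after its values were seen, had 57.8 and 81.5 CPM in WT and 24.8, 28.5 and 17.6 CPM in KO, with adjusted p = 0.832 in edgeR and 0.00987 in DESeq2.

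**Figure D4:**
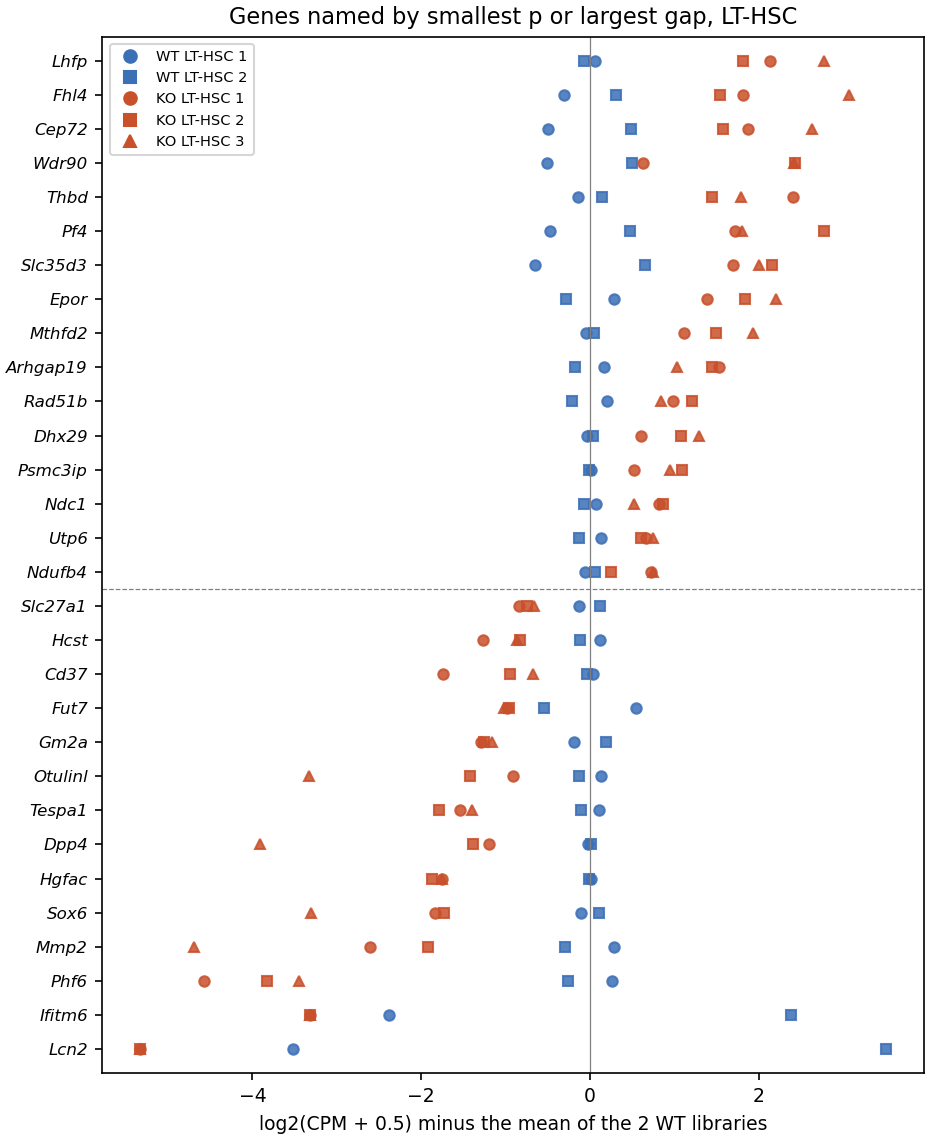
Named genes taken by smallest p or largest gap, with log2(CPM + 0.5) minus the mean of the 2 WT libraries on the x axis and 1 point per LT-HSC library; genes above the dashed line are higher in KO and those below it lower. Only genes without overlap were taken, so the KO points lie on 1 side of both WT points in each gene by choice. The widest WT spread is in Lcn2 and Ifitm6.

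Few genes were detected in 1 genotype only. With 0 counts in WT and at least 10 counts in each KO library there were 7 of 33367 genes (0.021%), 5 of them with a gene name. Besides Sva these were Gipc2, a PDZ-domain protein (19, 24 and 84 counts), Kremen2, a Dickkopf receptor of the Wnt pathway (10, 15 and 91), Rhcg, an ammonia channel (13, 27 and 13), and Nfatc4, a calcium-regulated transcription factor (14, 18 and 14). In the MPP2 and MPP3 libraries the highest Gipc2 count was 2, that of Nfatc4 was 15 (KO MPP3), that of Rhcg was 10 (in KO of both populations) and that of Kremen2 was 45 (WT MPP2). All 4 were at 0 in some KO library of each progenitor population, whereas Sva had at least 14 counts in every one. In the other direction 20 genes (0.0599%) had 0 counts in KO and at least 10 in both WT libraries, 10 of them with a gene name. Lca5l, a lebercilin-like gene, had 81 and 71 counts, Sema3d, a secreted semaphorin, 28 and 62, Tmem171 49 and 13, Apof, an apolipoprotein, 17 and 25, and Syt15, a synaptotagmin, 17 and 20. Lcn2, Ifitm6, Retnlg, Chil1 and Cd300lf made up the rest, and the first 3 of these are in the neutrophil marker list. Chil1 (14 and 477 counts) and Cd300lf (14 and 98) had most of their counts in WT library 2, as did Lcn2 and Ifitm6. Retnlg had 21 and 18 counts. Each of the 10 had at least 1 count in some MPP2 or MPP3 library.

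Stem cell identity genes were split between the directions. Of 36 tested, 17 were higher and 19 lower in KO, 0 were called by edgeR and 0 had an unadjusted p under 0.05. Their median log2 difference was -0.05, against 0.00 over all genes, and left-out libraries took it from -0.21 to 0.06. Gcnt2, a glycosyltransferase used as an HSC marker, had 197 and 215 CPM in WT and 179, 106 and 127 CPM in KO (log2 difference -0.58, SE 0.442). Fhl1, a LIM-domain gene, had 75.1 and 75.5 CPM in WT and 140, 98.8 and 102 CPM in KO (log2 difference 0.59, SE 0.596). Neither difference passed the test, although the groups did not overlap. Of 28 chromatin regulators tested, 12 were higher and 16 lower. Without overlap, 6 were lower (against 10.8% of all genes) and 1 higher (against 7.53%). At an unadjusted p under 0.05 by edgeR, 1 was lower (against 1.55%) and 0 were higher. That 1 was Kdm5b, a histone H3K4 demethylase, with 93.1 and 77.0 CPM in WT and 67.3, 62.5 and 53.4 CPM in KO (log2 difference -0.48, SE 0.224).

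Surface genes used to define stem and progenitor cells gave mixed values. Of 11 tested, 4 were higher and 7 lower, and 4 had no overlap, all lower in KO, where 10.8% of all tested genes were. Flt3, the receptor that marks lymphoid-biased multipotent progenitors and was not stained in the sort, had 61.8 and 87.8 CPM in WT and 14.5, 40.1 and 9.71 CPM in KO (log2 difference -1.80, SE 1.35). Cd27, a TNF-receptor family member, had 154 and 157 CPM in WT and 98.7, 92.5 and 102 CPM in KO (log2 difference -0.67, SE 0.384). Cd34 had 386 and 389 CPM in WT and 283, 277 and 199 CPM in KO. In a bulk library, fewer cells of a type and less RNA per cell cannot be told apart. Kit and Ly6a, stained in the sort, overlapped between the groups, with 235 to 372 CPM for Kit and 171 to 359 CPM for Ly6a.

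Genes of granulocyte-monocyte priming were mostly lower in KO. Of 30 tested, 23 were lower, 6 were higher and 1 had 0 counts, 11 were lower without overlap (against 10.8% of all genes) and 4 lower at an unadjusted p under 0.05 (against 1.55%), with 0 called by edgeR. The median log2 difference was -0.86, and -0.33 without WT library 2, the one with neutrophil RNA. Plac8, a myeloid and lymphoid progenitor gene, had 217 and 125 CPM in WT and 90.7, 47.5 and 12.0 CPM in KO (log2 difference -1.77, SE 0.564). Fcer1g, the common Fc receptor gamma chain, had 59.4 and 86.9 CPM in WT and 31.7, 36.6 and 31.99 CPM in KO (log2 difference -1.13, SE 0.462). Nkg7, a granule protein, had 123 and 111 CPM in WT and 71.2, 105 and 28.7 CPM in KO (log2 difference -0.78, SE 0.407). WT library 1, with 0.00228% neutrophil marker counts, was above all 3 KO libraries in each of these 3 genes. Of the 15 neutrophil markers tested, 14 were lower in KO, and their part in the list's median was not tested.

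Lymphoid priming genes were also mostly lower in KO. Of 22 tested, 15 were lower and 7 higher, 7 were lower without overlap (against 10.8% of all genes) and 3 lower at an unadjusted p under 0.05 (against 1.55%), with 0 called by edgeR. The summed share of the list was 0.109% and 0.113% of counts in WT and 0.0779%, 0.0709% and 0.0777% in KO, so the KO libraries were all below WT. The median log2 difference of -0.64 shrank to -0.13 without WT library 1. Besides Cd37, Tespa1 and Flt3, Lsp1, a leukocyte actin-binding protein, had 254 and 255 CPM in WT and 140, 119 and 179 CPM in KO (log2 difference -0.80, SE 0.565). B and plasma cell markers took 0.00750% and 0.00805% of counts in WT and from 0.00466% to 0.00812% in KO, with 9 markers higher and 3 lower in KO and a median log2 difference of 0.88. T and NK cell markers took 0.00978% and 0.00421% in WT and from 0.00276% to 0.00349% in KO, with Cd8a, Cd8b1 and Trbc1 at 0 in all 5 libraries. WT was above KO in the T and NK share, and the part of either list in the lymphoid values was not tested.

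Megakaryocyte and erythroid genes were more often higher than lower in KO, with large differences among libraries. Of 25 megakaryocyte and platelet genes, 16 were higher and 9 lower, 5 were higher without overlap (against 7.53% of all genes) and 0 had an unadjusted p under 0.05 in edgeR. F2rl2, the thrombin receptor PAR3, had 13.7 and 12.1 CPM in WT and 33.8, 42.9 and 28.5 CPM in KO (log2 difference 1.44, SE 0.900). Rab27b, a GTPase of platelet granule release, had 57.4 and 56.4 CPM in WT and 164, 108 and 90.7 CPM in KO (log2 difference 1.09, SE 0.823). In both, the WT libraries were close and every KO library was higher, while the list's median log2 difference was 0.16, and 0.04 without WT library 2. Erythroid priming genes had 18 of 20 higher and a median log2 difference of 0.76, but -0.15 without KO library 2. That library also held the most erythroblast marker RNA, 0.116% of counts against 0.0109% to 0.0385% in the other 4, and the most cell cycle RNA, and their part in the erythroid values was not tested.

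Cell cycle genes depended on the same library. Of 40 tested, 36 were higher in KO and 4 lower, with 4 higher without overlap (against 7.53% of all genes) and 0 at an unadjusted p under 0.05 in edgeR. Their summed share was 0.451% and 0.401% of counts in WT and 0.429%, 0.663% and 0.424% in KO. KO libraries 1 and 3 lay within the WT range and KO library 2 above it, and the median log2 difference went from 0.23 to -0.05 without KO library 2. Nusap1, a spindle protein, had 61.9 and 79.9 CPM in WT and 108, 112 and 96.0 CPM in KO (log2 difference 0.57, SE 0.350). Pcna, the DNA polymerase clamp, had 201 and 191 CPM in WT and 261, 274 and 209 CPM in KO (log2 difference 0.34, SE 0.228).

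Inhibitors of the cycle had no common direction. Among 25 quiescence genes 11 were higher and 14 lower, 3 of these at an unadjusted p under 0.05 (against 1.55% of all genes), with 0 called by edgeR and a median of -0.02 (from -0.16 to 0.16 with 1 library left out). Rbl2, the p130 pocket protein of resting cells, had 52.4 and 63.1 CPM in WT and 42.5, 33.5 and 19.2 CPM in KO (log2 difference -0.86, SE 0.359). Txnip, a thioredoxin-binding protein linked to HSC quiescence, had 821 and 919 CPM in WT and 642, 567 and 574 CPM in KO (log2 difference -0.55, SE 0.247). Cdkn2c, the p18 inhibitor of CDK4 and CDK6, had 26.4 and 25.0 CPM in WT and 9.63, 23.5 and 8.41 CPM in KO (log2 difference -0.89, SE 0.375). KO library 2 was close to WT in Cdkn2c, the other KO libraries being well below.

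Genes of oxidative phosphorylation had the most even direction of all lists. Of 53 nuclear genes tested, 52 had a log2 difference above 0 (against 50.3% of all genes), 17 were higher without overlap (against 7.53%) and 5 higher at an unadjusted p under 0.05 (against 0.886%), with 0 called by edgeR. The differences were small, with a median of 0.25 that stayed between 0.18 and 0.30 when any 1 LT-HSC library was left out. Cox7b, a subunit of cytochrome c oxidase, had 258 and 259 CPM in WT and 363, 327 and 388 CPM in KO (log2 difference 0.47, SE 0.171). Ndufa5 and Ndufb5, both subunits of complex I, had log2 differences of 0.41 (SE 0.189) and 0.33 (SE 0.157), each without overlap between the groups. The list's median deviation from the mean of the 5 libraries was -0.11 and -0.16 on the log2 scale in WT and -0.12, 0.18 and 0.24 in KO. KO library 1 lay between the WT libraries and KO libraries 2 and 3 above them. The summed share was 1.64% and 1.60% of counts in WT and 1.57%, 1.97% and 2.01% in KO, with KO library 1 below WT. Genes encoded by the mitochondrial genome had 8 of 9 above 0 and 0 without overlap.

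Ribosome genes were mostly higher in KO, by small amounts. Of 41 ribosome biogenesis genes 33 were higher, 10 of them without overlap (against 7.53% of all genes), and 0 had an unadjusted p under 0.05 in edgeR. Their median was 0.22, and from 0.16 to 0.35 with 1 library left out. With the replicate block it was 0.11, with 26 members higher. Nip7, a factor of large-subunit assembly, had 118 and 120 CPM in WT and 161, 156 and 208 CPM in KO (log2 difference 0.55, SE 0.292). Nop58, a core protein of box C/D small nucleolar particles, had 351 and 327 CPM in WT and 471, 450 and 395 CPM in KO (log2 difference 0.37, SE 0.207). Of 85 ribosomal protein genes 71 were higher with a median of 0.10, which was -0.01 without KO library 3. Rps27l, a p53-responsive relative of Rps27, had 317 and 360 CPM in WT and 451, 521 and 472 CPM in KO (log2 difference 0.51, SE 0.193), and was the 1 member with an unadjusted p under 0.05. How reads shared between near-identical ribosomal protein and histone genes were counted is not known, so single members are uncertain.

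Glycolysis genes were evenly split, 11 higher and 11 lower. The 5 members without overlap were all lower (against 10.8% of all genes), among them Hk3, a hexokinase of myeloid cells, with 17.4 and 12.0 CPM in WT and 4.85, 3.53 and 2.80 CPM in KO (log2 difference -1.98, SE 0.884). Slc2a3, the glucose transporter GLUT3, had 105 and 83.9 CPM in WT and 63.0, 45.5 and 46.8 CPM in KO (log2 difference -0.87, SE 0.429). Both genes are also expressed in neutrophils, and WT library 2 held 0.537% neutrophil marker counts. WT library 1 held the higher value of each, and the part of neutrophil RNA in these values was not tested.

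Signalling lists differed from each other. Of 38 interferon response genes 34 were higher, 6 without overlap (against 7.53% of all genes) and 2 at an unadjusted p under 0.05 (against 0.886%), and 0 were called by edgeR. Oasl1, an interferon-induced antiviral gene, had 10.8 and 6.87 CPM in WT and 24.3, 13.9 and 24.4 CPM in KO (log2 difference 1.24, SE 0.436). The list's median log2 difference was 0.30, but 0.02 without KO library 1, where the summed share was highest. Of 38 TNF receptor and NF-kB genes 25 were lower and 13 higher, 8 lower without overlap (against 10.8% of all genes) and 0 at an unadjusted p under 0.05 in edgeR. Nfkb1, the p105 precursor subunit, had 143 and 149 CPM in WT and 110.4, 130.0 and 108 CPM in KO (log2 difference -0.33, SE 0.197). Ikbkb, the kinase that releases NF-kB, had 98.7 and 105 CPM in WT and 77.6, 78.1 and 78.5 CPM in KO (log2 difference -0.39, SE 0.271). The 3 KO values of Ikbkb lay within 1 CPM of each other, below both WT values. Of 37 JAK-STAT genes 25 were lower, 5 without overlap (against 10.8% of all genes), with a median of -0.13 (-0.07 without KO library 2 and -0.21 without KO library 3). Immediate early genes overlapped between the genotypes, at 0.257% and 0.0817% of counts in WT and 0.228%, 0.0557% and 0.131% in KO.

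The remaining lists are given together. Of 26 niche adhesion and homing genes 20 were lower, 7 without overlap (against 10.8% of all genes) and 2 at an unadjusted p under 0.05 (against 1.55%). Their median log2 difference was -0.30, and between -0.33 and -0.18 when any 1 LT-HSC library was left out. Pecam1, the CD31 adhesion molecule, had 35.4 and 43.6 CPM in WT and 28.7, 26.1 and 21.5 CPM in KO (log2 difference -0.64, SE 0.311). Of 55 replication-dependent histone genes 39 were lower and 16 higher. Without overlap, 9 were lower (against 10.8% of all genes) and 3 higher (against 7.53%). Their median log2 difference was -0.31, but -0.09 without WT library 1, with 25 members then higher. Hist2h4 had 11.1 and 11.1 CPM in WT and 3.77, 2.33 and 6.30 CPM in KO (log2 difference -1.42, SE 0.466). Of 27 DNA damage response genes 20 were higher, 4 without overlap (against 7.53% of all genes), with a median of 0.21 (from 0.11 to 0.24 with 1 library left out). In the BCL2 family, Bcl2, which blocks apoptosis, had 64.1 and 80.5 CPM in WT and 129, 81.1 and 118 CPM in KO (log2 difference 0.60, SE 0.246). Bid, which promotes it, had 82.9 and 87.6 CPM in WT and 52.5, 66.9 and 45.9 CPM in KO (log2 difference -0.63, SE 0.259). Both BCL2 family genes separated the groups, Bcl2 by a margin of under 1 CPM. Hox and Meis genes had 7 higher and 14 lower, 6 lower without overlap (against 10.8% of all genes). Notch genes had 8 higher and 13 lower. Without overlap, 5 were lower (against 10.8% of all genes) and 1 higher (against 7.53%). Their median log2 difference was -0.44, but -0.05 without WT library 2. Under a stricter filter of 5 CPM, 8 members remained, and their median was -0.08. Gata3, a T-lineage transcription factor counted in the Notch list, had 52.0 and 55.7 CPM in WT and 33.0, 27.9 and 32.9 CPM in KO. Hspe1, a mitochondrial chaperonin, had 194 and 159 CPM in WT and 268, 314 and 249.1 CPM in KO (log2 difference 0.65, SE 0.237). The lists of p53 targets, TGF-beta and BMP, retinoic acid, NuRD and PAF1, and PHD finger genes had medians between -0.14 and 0.09 that moved with single libraries. Without 1 library they ranged from -0.22 to 0.16 for retinoic acid, from -0.16 to 0.17 for TGF-beta and BMP, from -0.0043 to 0.34 for p53 targets, from -0.09 to 0.11 for NuRD and PAF1, and from -0.15 to 0.13 for PHD finger genes. In these lists edgeR called 0 members beyond Phf6.

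**Figure D5:**
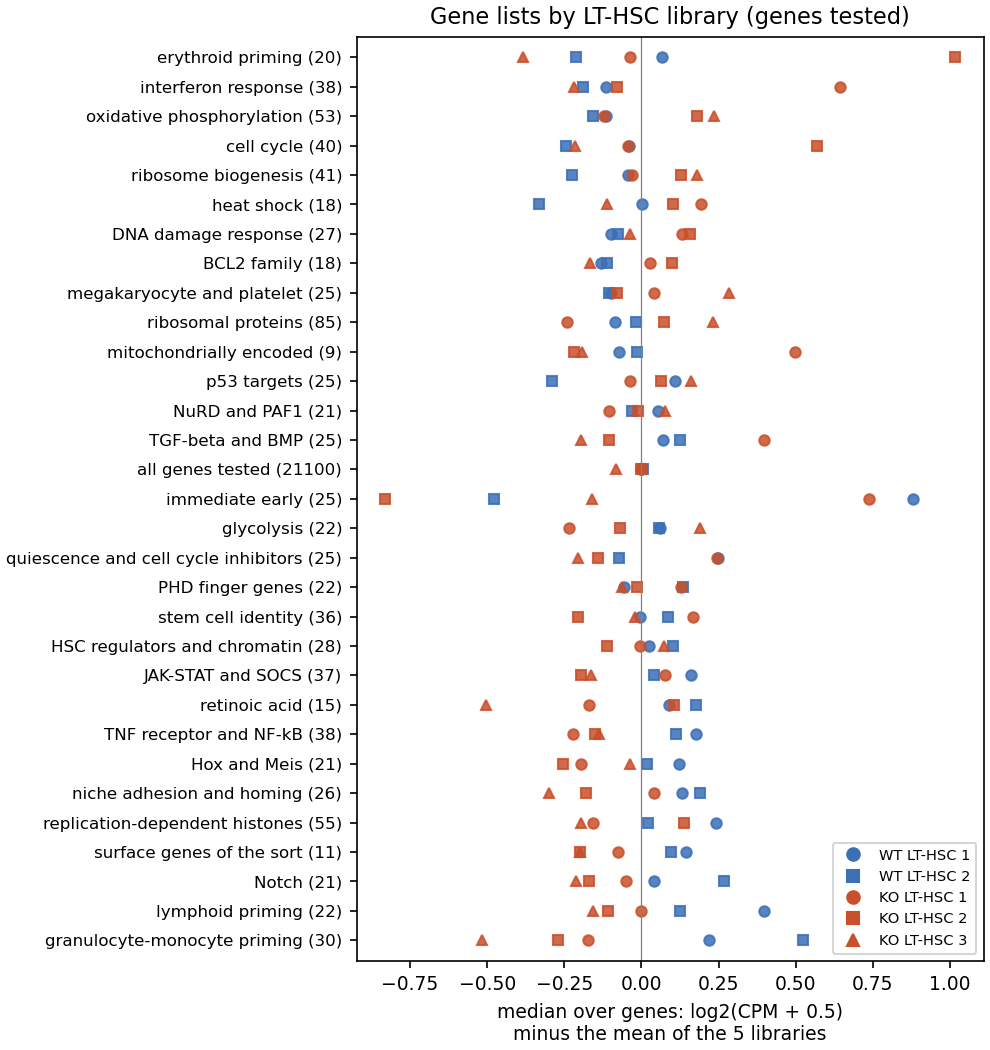
Gene lists (y axis, number of tested genes in brackets) by LT-HSC library, as the median over genes of log2(CPM + 0.5) minus the mean of the 5 libraries (x axis). KO library 2 stands apart in erythroid priming and cell cycle, and KO library 1 in interferon response. The 3 KO points lie below both WT points in granulocyte-monocyte and lymphoid priming. They also do so in surface genes of the sort, TNF receptor and NF-kB, Hox and Meis, Notch, and niche adhesion and homing. They lie above both WT points in megakaryocyte and platelet, DNA damage response, and ribosome biogenesis. The list labelled surface genes of the sort also holds genes that were not stained in the sort, such as Flt3.

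Whether the KO difference in LT-HSC departed from that in the progenitors was tested in the same fit. edgeR called 0 genes (0.0%) for the difference from MPP2, with 759 (3.6%) at an unadjusted p under 0.05, and 0 for the difference from MPP3, with 521 (2.47%). Limma voom with quality weights also called 0 in each, while DESeq2 called 24 (0.114%) and 26 (0.123%). Within MPP2 edgeR called 3 genes (0.0142%) and within MPP3 2 genes (0.00948%) between KO and WT, Phf6 and Sva in both. Phf6 had log2 fold changes of -3.96, -3.54 and -3.86 in the order LT-HSC, MPP2, MPP3, and the LT-HSC value differed from these by -0.42 (SE 0.706) and -0.11 (SE 0.708). Cep72 had the smallest p for the contrast with MPP3, where its log2 difference was -0.27 (SE 0.336) against 2.22 in LT-HSC. That difference of 2.49 (SE 0.573) had an unadjusted p of 0.000349 and an adjusted p of 1 by edgeR. Against MPP2 the smallest p belonged to Serf1, a small EDRK-rich protein, with 44.5 and 49.5 CPM in WT and 76.2, 53.5 and 76.7 CPM in KO LT-HSC, and log2 differences of 0.55 in LT-HSC and -0.50 in MPP2. Sox6 was lower in KO in all 3 populations, with log2 differences of -2.18 (SE 0.588), -0.88 (SE 0.462) and -1.06 in the same order, none of them past the threshold in edgeR. Granulocyte-monocyte priming genes had medians of -0.86, -0.02 and 0.12 in that order, and that contrast between lists was not tested.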

How the data were processed

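The deposited table holds raw read counts per gene for 54446 gene IDs in 21 libraries, and the submitters' processing notes name STAR and mm10. How reads were assigned to genes, and with which annotation, is not given in the sources used here. Of the IDs, 54409 matched GENCODE M21, the source of names and coordinates. Groups came from the labels. Levels are CPM with TMM factors.

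Counts were tested with edgeR 4.0.16 (quasi-likelihood, robust) in R 4.3.3 in 1 fit of all 21 libraries in 6 groups, with a filter at a minimum count of 10, Benjamini-Hochberg adjustment over 21100 genes and a threshold of 0.05. The spread is thus shared with MPP2 and MPP3. The common biological coefficient of variation was 0.757. Alternatives were DESeq2 1.42.0, limma 3.58.1 (voom), other scalings and filters, LT-HSC libraries alone, a replicate block and each library left out. A floor of 3 counts covers counting error alone, because no molecular identifiers are stated and PCR copies may be counted.

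The members and gene lists were chosen with earlier results of these data known. Named were Phf6, Sva, 12 genes per direction by smallest p and 6 by largest gap (at least 10 CPM, no overlap, no predicted genes), up to 4 per list by smallest p, genes at 0 counts in 1 genotype, neighbours within 500 kb, surface genes, and 4 genes by the difference from each progenitor. Not all of these are printed, and some genes are not reported here. No set test was run.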

Additional observations from a re-analysis of the deposited data

How the results depend on the processing

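With DESeq2 the count of called genes was 28 and with limma voom 6, against 1 in edgeR, and it was 0 in a fit of the LT-HSC libraries alone. Leaving out 1 LT-HSC library gave 0 calls in each of the 5 fits (range 0 to 0). It stayed at 1 with the RLE or upper-quartile factors, without a filter, with at least 5 CPM, and, chosen after seeing the data, without the 3 progenitor libraries whose top gene took over 5% of counts. DESeq2 called 24 and 26 genes for the differences from MPP2 and MPP3, and the other settings called 0. With a replicate block, which added a term per replicate number, edgeR called 0 genes and the adjusted p of Phf6 was 0.282. Same-numbered WT and KO libraries correlated at 0.0583 and 0.0613 in LT-HSC in their deviations from group means, from 0.299 to 0.343 in MPP2 and from 0.114 to 0.218 in MPP3. Other-numbered libraries ranged from -0.379 to 0.367 in MPP2 and from -0.209 to 0.206 in MPP3. All the negative values there lay between replicates 1 or 2 and replicates 3 or 4. The deviations in the progenitors thus split low from high replicate numbers. Among low or high numbers alone, each WT library correlated more with the same-numbered KO library than with the other, save WT MPP2 library 3. In MPP3, for example, WT library 2 had 0.176 with KO library 2 and 0.035 with KO library 1. WT MPP2 library 3 had 0.310 with KO library 3 and 0.367 with KO library 4. The progenitors supply most of the spread in the fit. In LT-HSC, the deviations of 2 WT libraries are mirror images by arithmetic, and the labels state no pairing. Of the 202 genes under the naming rule with a fold change, 31 changed direction in at least 1 setting, 28 of them with 1 library left out. Of the 100 that the text names, 9 did. With 1 library left out their log2 differences ranged from -0.68 to 1.71 for Klf1, -1.36 to 1.22 for Car1, -0.43 to 0.15 for Ly6a, -0.12 to 0.20 for Slamf1, -0.48 to 0.98 for Cd48, -0.21 to 0.24 for Mecom, -0.22 to 0.062 for Hoxb5 and -6.76 to 1.32 for S100a8. With the replicate block, Ly6a had 0.95, Slamf1 -0.080, Hlf 0.24 and Hoxb5 0.27, and with limma voom Mecom had -0.016, each of the opposite sign to the value from edgeR. The text gives these genes as levels, with no direction between the genotypes other than for S100a8 in WT library 2. Genes without overlap numbered 1458 to 2084 higher and 1563 to 2214 lower with 1 library left out, since fewer libraries overlap less often.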

Other observations

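Erythroblast genes varied among KO libraries more than between genotypes. Car1, a carbonic anhydrase of red cell precursors, had 206 and 236 CPM in WT and 156.5, 871 and 15.7 CPM in KO. Klf1, the erythroid transcription factor, had 23.3 and 9.92 CPM in WT and 19.6, 75.7 and 1.03 CPM in KO. KO library 2 was the highest and KO library 3 the lowest in both genes. Hdac2, named after its values were seen and a histone deacetylase of the NuRD complex, had 305 and 276 CPM in WT and 67.7, 270.1 and 259 CPM in KO, so a single KO library was far below the other 4.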
